A study of Mus musculus with 18 samples.

Results

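Levels of 10 senescence and p53 pathway genes were described in bulk RNA sequencing of mouse retinal pigment epithelium (RPE), a single layer of pigmented cells that supports the photoreceptors. The genes were taken by symbol from the table of 21859 gene rows and were Cdkn1a, Cdkn1b, Cdkn2a, Cdkn2b, Trp53, Mdm2, Gdf15, Lmnb1, Ccng1 and Bax. All 10 were found and all 10 passed the filter on low counts that left 15944 genes, but Cdkn2a passed it mainly through the Old-OSK libraries, where it was highest. The 18 libraries fell into 4 groups: young mice (Young, 7 libraries), old mice without vector (Old, 4 libraries), old mice given AAV2-tTA (Old-Control, 3 libraries) and old mice given AAV2-tTA;TRE-OSK (Old-OSK, 4 libraries). Both vector groups carry tTA, a transactivator controlled by tetracycline, in an adeno-associated virus of serotype AAV2, and TRE is the promoter it drives. OSK stands for the reprogramming factors Oct4 (gene Pou5f1), Sox2 and Klf4. Ages, strain, vector doses, the time after injection, the promoter that drives tTA and the number of animals behind a library are not given in the sources used here. Nothing in the labels says that libraries of a group came from separate animals, so the p-values below measure the spread between these libraries, which may be technical.

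As background, p53, the product of Trp53, is a transcription factor that is held at a low level by the ubiquitin ligase Mdm2 and accumulates after DNA damage and other stress, mostly through protein stability rather than its own mRNA. It switches on Cdkn1a, whose product p21 inhibits cyclin-dependent kinases, together with Mdm2, Ccng1 and Bax. Senescence is a lasting arrest of the cell cycle in which p21 and the INK4 inhibitors encoded by Cdkn2a and Cdkn2b are often raised, lamin B1 (Lmnb1) is often lost, and cytokines, proteases and growth factors are secreted. The RPE of an adult eye is largely postmitotic.

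Promoter windows of RefSeq on GRCm38.p6, which hold 250 bases before and 50 bases after an annotated start, were found for 9 of the 10 genes (12 windows). Those of the genes on which the results turn are printed 5′ to 3′ on the strand of the gene, ending before the first annotated untranslated base. Capitals mark a p53 core (CATG, 6 bases of any kind and CATG again, which reads the same on both strands) or a GC box (GGGCGG on either strand). The first Cdkn1a window lies at chr17:29090729-29090978 (plus strand) and the second, inside the gene, at chr17:29093519-29093768 (plus strand). The Mdm2 window is chr10:117710759-117711008, that of the Cdkn2a start of p16Ink4a is chr4:89282193-89282442 and that of Cdkn2b is chr4:89311040-89311282, all on the minus strand.
Cdkn1a, upstream start: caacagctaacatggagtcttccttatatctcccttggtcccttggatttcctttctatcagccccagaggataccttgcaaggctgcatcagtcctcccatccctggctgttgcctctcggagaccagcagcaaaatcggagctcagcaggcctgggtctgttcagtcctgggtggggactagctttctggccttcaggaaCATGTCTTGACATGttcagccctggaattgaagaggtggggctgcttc
Cdkn1a, downstream start: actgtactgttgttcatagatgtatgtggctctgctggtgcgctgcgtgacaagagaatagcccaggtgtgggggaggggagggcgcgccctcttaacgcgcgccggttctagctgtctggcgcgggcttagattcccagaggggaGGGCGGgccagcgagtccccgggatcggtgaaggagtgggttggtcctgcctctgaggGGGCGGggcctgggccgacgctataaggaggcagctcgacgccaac
Mdm2: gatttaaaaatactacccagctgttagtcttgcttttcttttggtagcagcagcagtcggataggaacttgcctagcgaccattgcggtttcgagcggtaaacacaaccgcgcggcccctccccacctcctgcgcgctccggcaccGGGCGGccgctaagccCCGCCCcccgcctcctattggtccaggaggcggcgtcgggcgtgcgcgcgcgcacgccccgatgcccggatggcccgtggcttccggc
Cdkn2a, p16Ink4a start: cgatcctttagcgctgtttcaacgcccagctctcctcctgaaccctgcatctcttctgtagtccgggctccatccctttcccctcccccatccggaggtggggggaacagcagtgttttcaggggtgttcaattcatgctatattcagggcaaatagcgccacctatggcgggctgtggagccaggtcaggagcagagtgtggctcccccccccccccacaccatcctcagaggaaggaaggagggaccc
Cdkn2b: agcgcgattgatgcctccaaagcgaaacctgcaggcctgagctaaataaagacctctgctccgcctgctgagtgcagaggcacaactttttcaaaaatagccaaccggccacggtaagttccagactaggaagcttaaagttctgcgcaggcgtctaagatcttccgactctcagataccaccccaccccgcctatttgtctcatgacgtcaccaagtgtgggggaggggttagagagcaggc

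The p53 core was found in the upstream Cdkn1a window alone among the 12 windows, from 48 to 35 bases before the start (chr17:29090931-29090944). It was present in 0.712% of 32851 mouse promoter windows of the same length. The downstream Cdkn1a window held 2 GC boxes and so did the Mdm2 window, and a GC box was present in 35.7% of all windows. The p16Ink4a and Cdkn2b windows each held a GC box after the start, outside the printed bases. The windows of Cdkn1b, Bax and the upstream Cdkn2a start, not printed here, held GC boxes too. An octamer (ATGCAAAT, the word bound by Oct4 and other POU factors) was found in none of the 12 windows and in 1.74% of all windows. These are matches of letters in the window searched and say nothing of occupancy. Other spellings of a p53 site, and bases outside the windows, were not searched, so a window without the core does not mean a gene without a site.

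Library totals ran from 18104828 to 32348136 counts. Pou5f1, a cargo gene that checks the vector labels, was at 50.1 to 97.4 CPM (counts scaled to library size and by TMM) in Old-OSK and at most 3.75 CPM in the other groups. The label RPE was checked against 8 RPE markers (among them Rpe65, Best1 and Rgr): none was at 0 in any library, and their summed level was 34986 to 57825 CPM in Young, 24135 to 42540 in Old, 18177 to 56131 in Old-Control and 13625 to 26848 in Old-OSK. The 8 rod photoreceptor markers were also present in every library, from 143 to 17654 CPM in sum, with the highest sums in Old-Control 2 and Old-OSK 4. The library names of 6 libraries (Young 5 to 7, Old-Control 2 and 3, Old-OSK 4) hold a letter M that the labels do not explain. Those 6 had 4040 to 5493 counts on 4 Y-linked genes and the other 12 had at most 93. By these counts the letter went with male tissue. No Old library carried the letter, so sex was not balanced between the groups.

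**Figure D1:**
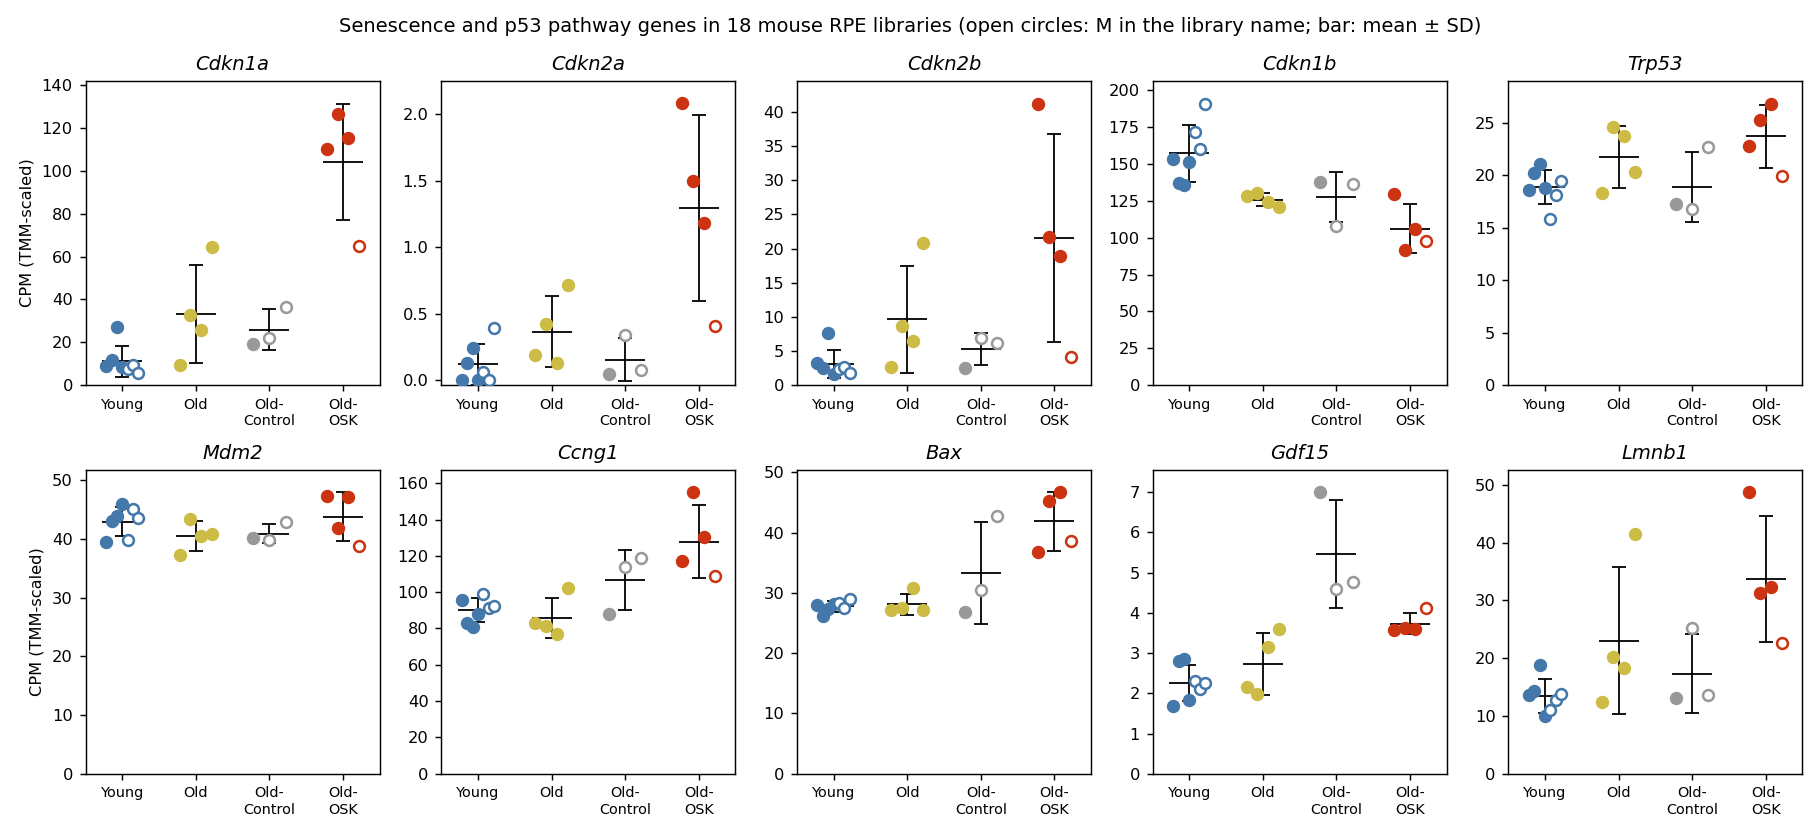
CPM of the 10 genes in each library (vertical axes, linear) by group (horizontal axis); points are libraries, open points carry the letter M, and horizontal bars with whiskers are mean ± SD. Cdkn1a lies between 64.9 and 127 CPM in the 4 Old-OSK libraries and reaches 64.4 CPM in the highest library of the other groups (Old 4), whereas Mdm2 stays between 37.3 and 47.3 CPM in all 18.

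Cdkn1a was the only member called in the comparison of old with young RPE. This comparison asks how the pathway differs with age in RPE that received no vector. A gene is called here when its adjusted p in edgeR's quasi-likelihood test is under 0.05 over all genes tested. By this rule 1 of the 10 members was called, beside 9.56% of all genes tested (5.4% higher in Old). The count of members called was thus near the share of all genes. The median log2 fold change of the 10 was 0.24, beside -0.00437 for all genes, and 4 of the 10 had an unadjusted p under 0.05, beside 29% of all genes.

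Cdkn1a (chr17:29090976-29100727, plus strand, GRCm38) encodes p21. In the 7 Young libraries its lowest, median and highest levels were 5.40, 8.75 and 27.1 CPM. The Old libraries 1 to 4 held 9.43, 32.8, 25.8 and 64.4 CPM. The groups overlapped, since Old 1 sat within the Young range and Young 3 sat above Old 3 and Old 1. Means were 33.1 ± 23.0 CPM in Old (SD, n = 4) and 11.2 ± 7.26 CPM in Young (SD, n = 7). The gene rose 2.95-fold in the fit, a log2 fold change of 1.56 with a standard error of 0.43 (edgeR adjusted p = 0.0355). In bulk RNA, more cells that express a gene and more of its RNA per cell cannot be told apart.

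The call of Cdkn1a rested on few libraries. It was kept in 2 of 11 fits that left out a library, and without Old 4 the log2 fold change was 1.01 (edgeR adjusted p = 0.229). With the letter M as a covariate it was 1.36 (adjusted p = 0.0938), and over the libraries without the letter 1.23 (adjusted p = 0.249). DESeq2, which called 2 of the 10 members (the other was Cdkn2b) and 15.4% of all genes, gave 1.56 with an adjusted p of 0.00588. Part of the counts of Cdkn1a is uncertain, because an annotated transcript that awaits experimental evidence (AC167363.2) lies over its downstream start on the opposite strand and the strand setting of the counting is not given in the sources used here.

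Cdkn1a was highest in Old-OSK, and there its level did not overlap that of the vector control. Old-OSK against Old-Control compares both tTA vector groups and so asks what TRE-OSK adds. By the labels the control holds no TRE construct without OSK. OSK itself and the TRE construct or its dose cannot be told apart. Old-Control 1 to 3 held 19.0, 21.8 and 36.7 CPM of Cdkn1a. Old-OSK 1 to 4 held 110.5, 127, 116 and 64.9 CPM. Every Old-OSK library lay above every Old-Control library, with Old-OSK 4, the only one with the letter M, nearest to them. Means were 104 ± 27.1 CPM (SD, n = 4) and 25.8 ± 9.52 CPM (SD, n = 3), a 4.04-fold difference. The log2 fold change was 2.02 with a standard error of 0.57 and missed the threshold (edgeR adjusted p = 0.0760).

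In this comparison edgeR called 0 of the 10 members, beside 0.728% of all genes tested. DESeq2 called 2 of them, Cdkn1a (log2 fold change 2.02, adjusted p = 0.00823) and Cdkn2b (2.06, adjusted p = 0.0349), beside 10.7% of all genes. Cdkn2a is left out of the counts that follow, because its place among the genes tested rests on its level in Old-OSK. An unadjusted p under 0.05 was reached by 6 of the other 9, beside 26.3% of all genes. Levels did not overlap between the groups for 2 of the 9 (Cdkn1a higher and Gdf15 lower in Old-OSK), beside 12.4% of all genes. The median log2 fold change of the 9 was 0.33, and that of all genes -0.0278. With same-numbered libraries of the vector groups treated as pairs, a fit of 6 libraries that drops Old-OSK 4, the log2 fold change of Cdkn1a was 2.24 (edgeR adjusted p = 0.0445). Over the same 6 libraries unpaired it was 2.19 (adjusted p = 0.0231). Without Old-OSK 4 in the fit of all groups it was 2.15 (adjusted p = 0.0346) and without both Old 4 and Old-Control 2 it was 1.87 (adjusted p = 0.0363). It was not called in the other 6 fits that left out 1 library, with an adjusted p of up to 0.346 (1.84, without Old-Control 1). Of the 11 other alternatives, DESeq2 among them, 4 called it. With the letter M as a covariate it was 1.65, the lowest of the 11, and was not called.

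Summed markers of cycling cells (Mki67, Top2a, Ccnb1, Cdk1, Birc5 and Mcm2) were highest in Old-OSK 1 to 3 and Old 4, which are among the 5 libraries with the most Cdkn1a. They came to 101, 80.8 and 94.1 CPM in Old-OSK 1 to 3 and 89.8 CPM in Old 4, against 46.7 CPM in Old-OSK 4, 38.0 to 45.5 CPM in Old-Control and 31.7 to 51.1 CPM in Young. The order was not the same throughout: Old-OSK 4 held more Cdkn1a than Old 4 with a cycling sum inside the Young range, and Old 2 held less Cdkn1a than Old-Control 3 with a sum of 77.6 CPM. Of the 6 markers, 4 had an unadjusted p under 0.05 in Old against Young and 5 in Old-OSK against Old-Control, with 0 called by edgeR and 3 called higher by DESeq2 in each. Of the 8 RPE markers 7 had a negative log2 fold change in each comparison, beside medians of -0.00437 (age) and -0.0278 (OSK) for all genes. Of them edgeR called 0 in either, and DESeq2 called 0 lower with age and 4 lower for OSK. An unadjusted p under 0.05 was reached by 2 with age and 7 for OSK. Of all genes 29% (age) and 26.3% (OSK) reached it, so the RPE count with age was near that share. DESeq2 called 9.4% (age) and 6.56% (OSK) of all genes higher, and 619 of 15001 lower for OSK. The RPE sum in Old 4 (24135 CPM) was the lowest of its group. That in Old-Control 2 was lower still (18177 CPM), where Cdkn1a was at 21.8 CPM. The part of these markers in the Cdkn1a values was not tested.

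Of the 2 INK4 members, whose products block the cyclin D kinases Cdk4 and Cdk6, neither was called. Cdkn2b had positive log2 fold changes in both comparisons, as Cdkn1a did, whereas the place of Cdkn2a among the genes tested rests on its level in Old-OSK. Cdkn2b (chr4:89306299-89311039, minus strand) encodes p15Ink4b. Its levels in Old-OSK 1 to 4 were 41.2, 21.7, 18.9 and 4.16 CPM. Old-Control 1 to 3 held 2.54, 6.93 and 6.19 CPM. Old-OSK 4 thus fell inside the Old-Control range while the other 3 were above it. Its log2 fold change was 2.04 ± 0.75 (standard error, edgeR adjusted p = 0.114). With 1 library left out it ran from 1.46 (without Old-OSK 1, adjusted p = 0.262) to 2.35 (without Old-OSK 4, adjusted p = 0.0407), and the last was the only call in those 7 fits. With the letter M as a covariate it was 1.44 (adjusted p = 0.392).

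With age, Cdkn2b went from a Young range of 1.58 to 7.66 CPM (median 2.47) to 2.63, 8.68, 6.43 and 20.8 CPM in Old 1 to 4. The groups overlapped, and Old 4 was again the highest. A log2 fold change of 1.64 ± 0.57 did not pass (edgeR adjusted p = 0.0708). It passed in DESeq2 (adjusted p = 0.0283), without Young 3 (2.05, adjusted p = 0.0251) and without Old 1 (1.95, adjusted p = 0.0314), and without Old 4 it was 0.94 (adjusted p = 0.418).

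Cdkn2a (chr4:89274471-89294653, minus strand) encodes p16Ink4a from its downstream start and p19Arf, an inhibitor of Mdm2, from its upstream start, and counts per gene do not separate them. It was the scarcest member. Young 1 to 7 held 0, 4, 6, 0, 1, 0 and 7 counts and Old 1 to 4 held 4, 8, 4 and 24 counts. Old-Control 1 to 3 held 1, 10 and 2 counts, and Old-OSK 1 to 4 held 43, 36, 23 and 13. Every Old-OSK library had more than every Old-Control library, also as CPM (0.40 to 2.08 against 0.04 to 0.34). These levels are a description, since Cdkn2a was tested mainly because it was high in Old-OSK, and counting error is large at such depths. In Old against Young the log2 fold change was 1.66 ± 0.86 (standard error, edgeR adjusted p = 0.213), a difference not detectable at this depth.

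Cdkn1b (chr6:134920401-134925513, plus strand), whose product p27 restrains Cdk2 in resting cells, had negative log2 fold changes in both comparisons and was not called. In Young it ran from 135 to 191 CPM with a median of 154. Old 1 to 4 held 128, 130.3, 124 and 121 CPM, all below the lowest Young library. Such a separation towards lower levels in Old was found for 1 of the 10 members and for 5.61% of all genes. The log2 fold change was -0.32 ± 0.11 (standard error, edgeR adjusted p = 0.0684) and the call was reached without Young 3 (-0.35, adjusted p = 0.0470). In Old-OSK 1 to 4 Cdkn1b was at 129, 92.0, 106 and 97.6 CPM, against 138, 108 and 137 CPM in Old-Control 1 to 3. These ranges overlapped and the log2 fold change was -0.26 ± 0.13 (adjusted p = 0.213).

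**Figure D2:**
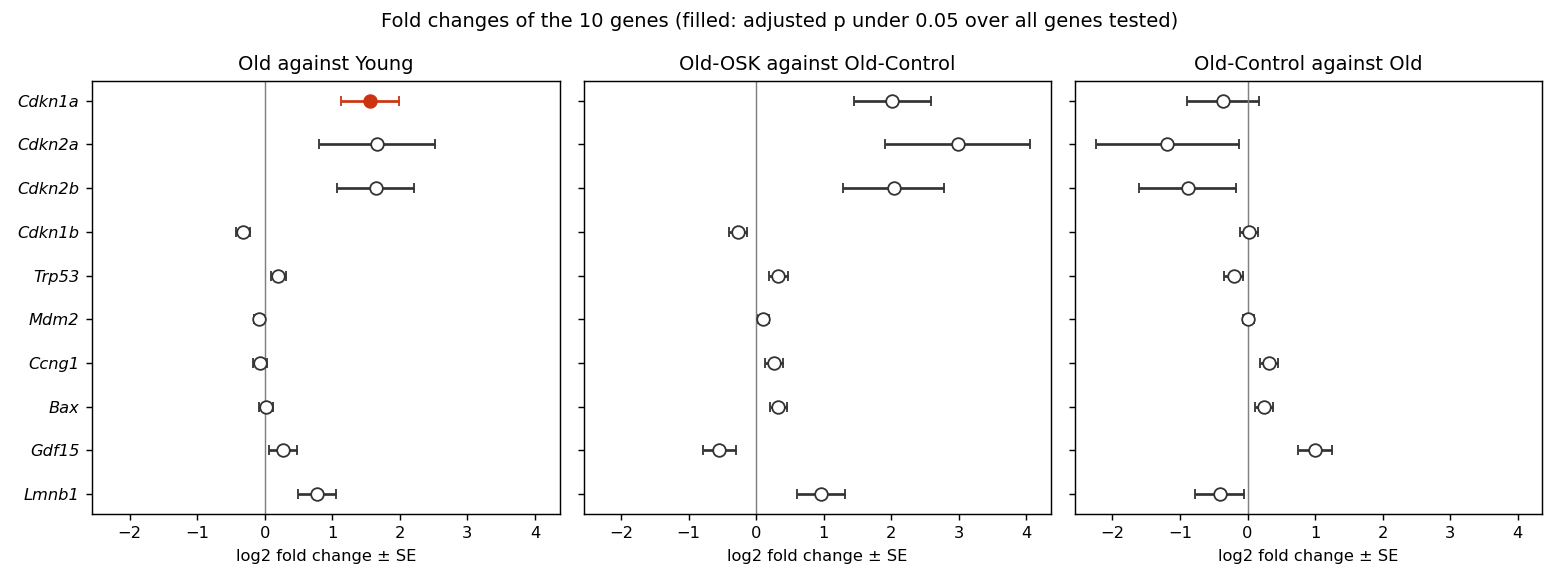
Log2 fold change of the 10 genes (horizontal axis, bars ± standard error of the edgeR fit) in the 3 comparisons named above the panels; filled points have an adjusted p under 0.05 over all genes tested. Only Cdkn1a in Old against Young is filled, and the values of Mdm2 lie within 0.10 of 0 in all 3 panels.

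Trp53 and Mdm2, the centre of the pathway, were not called in any comparison. Trp53 (chr11:69580359-69591873, plus strand) ran from 15.9 to 21.0 CPM in Young (median 18.8). It was 18.3, 24.6, 23.7 and 20.3 CPM in Old 1 to 4 and 17.2, 16.7 and 22.7 CPM in Old-Control 1 to 3. Old-OSK 1 to 4 held 22.8, 25.2, 26.8 and 19.9 CPM. All 4 ranges overlapped. The log2 fold change was 0.20 ± 0.12 in Old against Young (standard error, edgeR adjusted p = 0.254) and 0.33 ± 0.14 in Old-OSK against Old-Control (unadjusted p = 0.0349, adjusted p = 0.160), a 1.25-fold difference.

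Mdm2 (chr10:117688875-117710758, minus strand), which is both the brake on p53 and a target of it, varied least. Its mean was 43.0 ± 2.48 CPM in Young (SD, n = 7), 40.6 ± 2.53 in Old (SD, n = 4), 41.0 ± 1.66 in Old-Control (SD, n = 3) and 43.8 ± 4.15 in Old-OSK (SD, n = 4). Its log2 fold change was -0.08 ± 0.07 with age (edgeR adjusted p = 0.461) and 0.10 ± 0.09 in Old-OSK against Old-Control (adjusted p = 0.517). In the same Old-OSK libraries in which Cdkn1a stood 4.04-fold above Old-Control, Mdm2 stood 1.07-fold above it. The difference between these values was not tested.

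The p53 targets Ccng1 and Bax had log2 fold changes within 0.07 of 0 with age. Ccng1 (chr11:40748552-40755311, minus strand) encodes cyclin G1, which acts back on Mdm2, and Bax (chr7:45461697-45466898, minus strand) is a pore-forming protein of the mitochondrial death pathway. Ccng1 ran from 80.8 to 98.9 CPM in Young and was 83.0, 81.1, 77.1 and 102 CPM in Old 1 to 4. Bax ran from 26.2 to 28.9 CPM in Young and was 27.2, 27.4, 30.8 and 27.1 CPM in Old 1 to 4. The log2 fold changes were -0.07 ± 0.11 for Ccng1 (edgeR adjusted p = 0.719) and 0.02 ± 0.11 for Bax (adjusted p = 0.926), and the groups overlapped in both.

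Both had their highest means in Old-OSK, uncalled against Old-Control. Ccng1 was at 87.7, 114 and 119 CPM in Old-Control 1 to 3 and at 117, 155, 130.1 and 109 CPM in Old-OSK 1 to 4. Bax was at 26.8, 30.4 and 42.8 CPM in Old-Control 1 to 3 and at 36.8, 45.2, 46.7 and 38.7 CPM in Old-OSK 1 to 4. The vector groups overlapped in both genes, in Bax through Old-Control 3 alone. In Old-OSK against Old-Control the log2 fold change was 0.26 ± 0.13 for Ccng1 (edgeR adjusted p = 0.225) and 0.33 ± 0.13 for Bax (adjusted p = 0.130). With 1 library left out that of Bax ran from 0.19 (without Old-Control 1, adjusted p = 0.489) to 0.55 (without Old-Control 3, adjusted p = 0.0355), the only call in those 7 fits. Another annotated gene (Gm45808) runs over Bax on the same strand, so reads in the shared stretch could have been assigned to either or dropped.

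Gdf15 (chr8:70629393-70632456, minus strand), a secreted stress factor of the TGF-beta family, followed another order of groups. It ran from 1.68 to 2.85 CPM in Young and was 2.16, 1.99, 3.15 and 3.59 CPM in Old 1 to 4. Old-Control 1 to 3 held 7.0, 4.60 and 4.76 CPM, above every other library. Old-OSK 1 to 4 held 3.58, 3.62, 3.60 and 4.12 CPM, between Old-Control and most of Old. The log2 fold change in Old-OSK against Old-Control was -0.55 ± 0.25 (edgeR adjusted p = 0.175) and in Old against Young 0.27 ± 0.21 (adjusted p = 0.405).

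Old-Control against Old asks what the tTA vector and its delivery add. It shares the Old libraries with the age comparison and the Old-Control libraries with the OSK comparison. In it Gdf15 had a log2 fold change of 1.00 ± 0.25 (standard error, unadjusted p = 0.000944) with groups that did not overlap, as was so for 1 of the 10 members in that direction and for 2.25% of all genes. After adjustment over all genes p was 0.900. By edgeR 0 of 10 members and 0% of all genes were called, by DESeq2 0 members, and 2 members (Gdf15 and Ccng1) and 3.74% of all genes had an unadjusted p under 0.05. The median of the 10 was -0.09, beside 0.0372 for all genes. The letter M is in 2 of 3 Old-Control libraries and in no Old library, and with it as a covariate the log2 fold change of Gdf15 was 1.06.

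Lmnb1, which encodes lamin B1 of the nuclear lamina and often falls in senescent cells, had positive log2 fold changes in both comparisons and was not called. It ran from 9.90 to 18.9 CPM in Young (median 13.5) and was 12.4, 20.2, 18.2 and 41.4 CPM in Old 1 to 4. Old 1 and Old 3 lay inside the Young range, Old 2 just above it and Old 4 far above it. With age the log2 fold change was 0.78 ± 0.29 (standard error, edgeR adjusted p = 0.0868). Without Old 4 it was 0.33 (adjusted p = 0.531), and without Old 1 it was 0.98 (adjusted p = 0.0304).

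In the vector groups Lmnb1 was at 13.0, 25.2 and 13.7 CPM in Old-Control 1 to 3 and at 48.7, 31.3, 32.2 and 22.5 CPM in Old-OSK 1 to 4. Old-OSK 4 was below Old-Control 2, and the other Old-OSK libraries were above all of Old-Control. Between the vector groups the log2 fold change was 0.96 ± 0.36 (standard error, edgeR adjusted p = 0.120). With 1 library left out it ran from 0.69 (without Old-OSK 1, adjusted p = 0.271) to 1.30 (without Old-Control 2, adjusted p = 0.0345), the only call in those 7 fits.

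**Figure D3:**
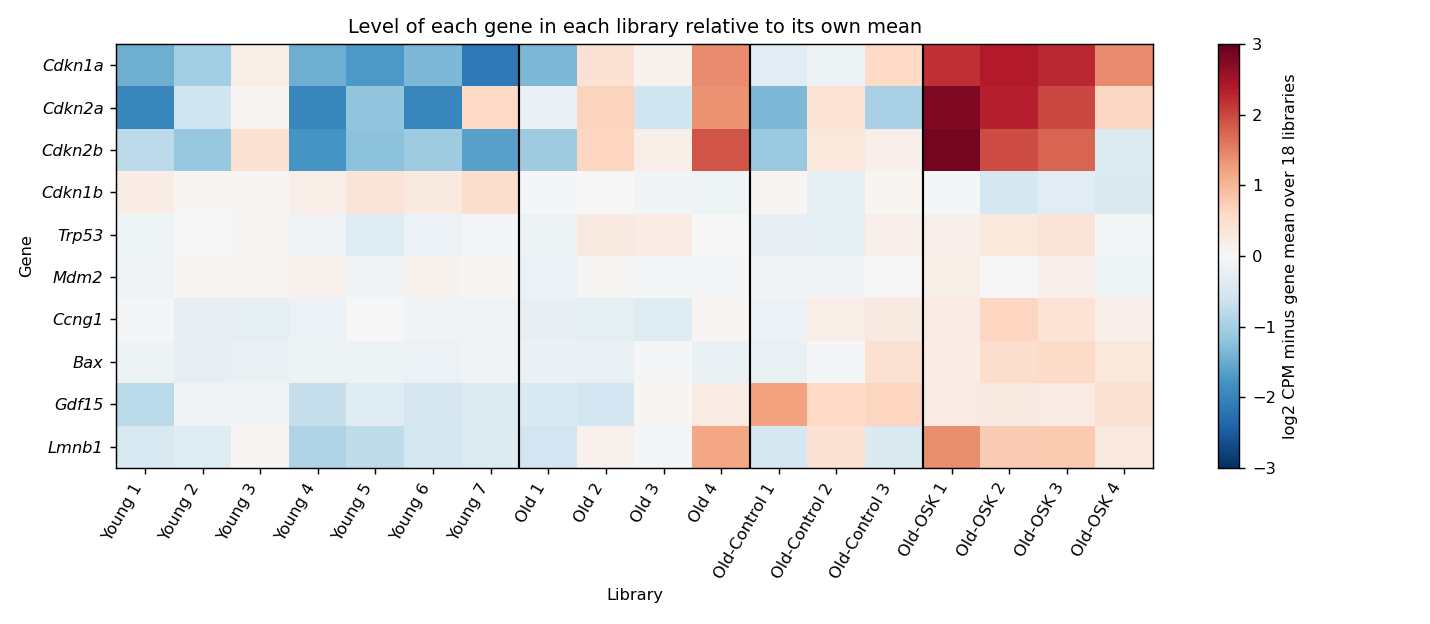
Log2 CPM of each gene (rows) in each library (columns, vertical lines between groups), centred on the gene's mean over the 18 libraries; red is above and blue below that mean. Cdkn1a, Cdkn2a, Cdkn2b and Lmnb1 are high in Old-OSK 1 to 3, and Old 4 is the reddest Old library in them, while the rows of Cdkn1b, Trp53, Mdm2, Ccng1 and Bax are pale throughout.

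Some libraries were at an end of their group's range for several members. Old 4 was the highest Old library for 6 of the 10 genes, among them Cdkn1a, Cdkn2a, Cdkn2b and Lmnb1. Old-OSK 4 was the lowest Old-OSK library for 7 of the 10, among them the same 4. As a measure of likeness, each gene was centred on its own mean log2 CPM, and the root mean square difference was taken over the 18 libraries. Cdkn2b was the member nearest to Cdkn1a, at 0.62, where the spread of Cdkn1a about its own mean was 1.43. Bax was nearest to Ccng1, at 0.15, with a spread of Ccng1 of 0.27. The libraries share depth and makeup across genes, so these values are a description.

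Among 10232 well expressed genes, Lad1, Rab7b and Junb were nearest to Cdkn1a, at 0.43, 0.46 and 0.52 over 18 libraries. Junb is an immediate early gene of the AP-1 family and Lad1 codes for ladinin, a basement membrane protein. Lad1 was at 14.3 ± 10.7 CPM in Young (SD, n = 7), 56.0 ± 41.8 in Old (SD, n = 4), 28.9 ± 10.2 in Old-Control (SD, n = 3) and 109 ± 54.1 in Old-OSK (SD, n = 4). Among the nearest to Ccng1 were Cdkn2d, another INK4 inhibitor, and Polr3k, a subunit of RNA polymerase III, at 0.14 and 0.15. Among the nearest to Lmnb1 were the ribosomal protein genes Rps18 and Rpsa, both at 0.17.

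Levels can be set against each other across genes only per length, here as CPM per kilobase of annotated exon. In Young, Cdkn1b (34.5) and Ccng1 (25.6) stood at the top, followed by Bax (17.6), Mdm2 (8.46), Trp53 (4.66), Lmnb1 (4.55), Cdkn1a (3.15), Cdkn2b (2.22), Gdf15 (1.22) and Cdkn2a (0.10), in CPM per kilobase. Over the 7 Young libraries, neighbours in that order overlapped in range from Trp53 down to Gdf15, and no other neighbours did. In Old-OSK, Cdkn1a had a mean of 29.4 CPM per kilobase, between Ccng1 (36.4) and Bax (26.6), and its range overlapped that of Cdkn1b (23.3), Bax and Ccng1.

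Other genes around the pathway were counted in 6 lists, with their medians beside the -0.00437 (age) and -0.0278 (OSK) of all genes. Counts at an unadjusted p under 0.05 stand beside 29% (age) and 26.3% (OSK) of all genes. Calls by edgeR with age stand beside 5.4% of all genes called higher and 663 of 15944 called lower. Those for OSK stand beside 0.728% called in either direction. Genes called higher by DESeq2 stand beside 9.4% (age) and 6.56% (OSK) of all genes, and those called lower for OSK beside 619 of 15001. Of 28 other p53 targets, 3 rose and 1 fell with age (median log2 fold change 0.11). Gadd45a, a DNA damage and growth arrest gene, rose by 1.26 on the log2 scale (edgeR adjusted p = 0.0355), with Young at 3.99 ± 0.76 CPM (SD, n = 7) and Old at 9.56 ± 5.71 CPM (SD, n = 4) and no overlap. Phlda3, an inhibitor of Akt signalling, rose by 0.91 (adjusted p = 0.0471), and Btg2, an antiproliferative gene, rose by 0.78 (adjusted p = 0.0471). Ei24 fell by 0.26 (adjusted p = 0.0362). Btg2 is named to complete the count, after its values were seen. Of the 11 fits that left out a library, 4 called Gadd45a, 2 called Phlda3 and 4 called Ei24. Without Old 4, 0 of the 28 were called higher and 1 lower by edgeR.

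The same 28 targets had a median of 0.17 in Old-OSK against Old-Control, with 0 called by edgeR, 7 at an unadjusted p under 0.05, a share near that of all genes, and 4 called higher by DESeq2. Phlda3 had the lowest p of them, with a log2 fold change of 1.49 ± 0.36 (edgeR adjusted p = 0.0594). Old-OSK held 111 ± 31.9 CPM of it (SD, n = 4) and Old-Control 39.7 ± 12.7 CPM (SD, n = 3), without overlap. Perp, a junction protein, had a log2 fold change of 1.46 (adjusted p = 0.0838) and the kinase gene Plk2 1.42 (adjusted p = 0.0961). In the paired fit, which drops Old-OSK 4, 2 of the 28 were called, Phlda3 (edgeR adjusted p = 0.0445) and Plk2 (adjusted p = 0.0499). That fit called 381 genes higher and 80 lower of 15256 tested, and its pairing rests on correlated deviations alone.

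Of 16 regulators of p53, edgeR called 0 in either comparison, with medians of -0.09 and 0.03. An unadjusted p under 0.05 was reached by 3 with age and by 2 for OSK, and DESeq2 called 2 higher with age and 1 lower for OSK. Trp63, the p53 relative of stratified epithelia, averaged 6.75 ± 7.15 CPM for Young (SD, n = 7) and 31.2 ± 25.6 CPM for Old (SD, n = 4), or 2.20 on the log2 scale (adjusted p = 0.0635). The checkpoint kinase gene Chek2 had a log2 fold change of 0.81 (adjusted p = 0.0650) and Atr one of -0.28 (adjusted p = 0.106). For OSK the values were -0.79 for the p53 kinase gene Hipk2 (adjusted p = 0.0847), -0.33 for Atr (adjusted p = 0.140) and 2.03 for Trp63 (adjusted p = 0.192).

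Of 17 genes of the RB axis and G1 kinases, through which p21 and the INK4 inhibitors act, 2 fell with age and 0 rose (median -0.07). Cdk2, the kinase that p21 and p27 inhibit, fell by 0.95 on the log2 scale (edgeR adjusted p = 0.00438), with Young at 39.7 ± 6.38 CPM (SD, n = 7) and Old at 20.5 ± 3.85 CPM (SD, n = 4), without overlap. It was called in all 11 fits that left out a library, but not over the libraries without the letter M (adjusted p = 0.0511). Cyclin D3 (Ccnd3) fell by 0.50 (adjusted p = 0.0390) and was called in 3 of those 11, while Ccne1 had a log2 fold change of 1.19 (adjusted p = 0.0723). For OSK the median was 0.28, with 10 of 17 at an unadjusted p under 0.05, 0 called by edgeR, and 1 called in each direction by DESeq2. E2f3 had a log2 fold change of -0.76 (adjusted p = 0.0768), Cdk4 0.43 (adjusted p = 0.0901) and Ccnd2 0.87 (adjusted p = 0.114, and 0.0468 in the paired fit).

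The list with the most calls was the secretory phenotype, of which 9 of 25 tested genes rose with age and 0 fell (median 1.34). They were the proteases and receptors Mmp3, Mmp12, Plau and Plaur, the chemokine Ccl2, the adhesion molecule Icam1, the growth factors Areg and Tgfb1, and Spp1, and are all named to complete the count, after their values were seen. Mmp3 averaged 1.93 ± 0.73 CPM for Young (SD, n = 7) and 11.9 ± 6.20 CPM for Old (SD, n = 4), a rise of 2.61 on the log2 scale (edgeR adjusted p = 0.00266). Mmp12, a macrophage elastase, rose by 2.35 (adjusted p = 0.00159) and Tgfb1 by 0.82 (adjusted p = 0.00433), and each of these 3 was called in all 11 fits that left out a library. Over the libraries without the letter M, Tgfb1 was not called (adjusted p = 0.0935). Without Old 4, 7 of the list were called higher, and over libraries without the letter M 2 were.

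Macrophage and microglia markers moved in the same comparison. Of 8 markers 6 were called higher in Old, beside 5.4% of all genes. Their summed level was 467 to 671 CPM in Young and 621 to 1063 CPM in Old. None of the 8 was at 0. Their part in the secretory values was not tested. For OSK against control the secretory list had a median of 0.60, with 0 called by edgeR, 9 at an unadjusted p under 0.05, and 5 higher and 2 lower by DESeq2. Vegfa, the growth factor that RPE supplies to the choroid, averaged 194 ± 47.5 CPM for Old-OSK (SD, n = 4) and 449 ± 234 CPM for Old-Control (SD, n = 3), or -1.21 on the log2 scale (adjusted p = 0.0631). Plau was 1.06 (adjusted p = 0.0715) and Tgfb1 0.67 (adjusted p = 0.0724) on the same scale, both without overlap between the vector groups.

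Of 13 other lamina and chromatin genes edgeR called 0 with age (median 0.02, 3 at an unadjusted p under 0.05, 0 by DESeq2) and 0 for OSK (median 0.16, 5 at an unadjusted p under 0.05, 1 higher by DESeq2). Lmna, which encodes lamins A and C, averaged 111 ± 28.9 CPM for Old-OSK (SD, n = 4) and 50.2 ± 12.9 CPM for Old-Control (SD, n = 3) without overlap, or 1.14 on the log2 scale (adjusted p = 0.0631, and 0.0468 in the paired fit). With age Lmna had 0.52 (adjusted p = 0.129), Hmgb2 0.56 (adjusted p = 0.141) and Lmnb2 0.38 (adjusted p = 0.145). For OSK Lbr had 0.53 (adjusted p = 0.107) and Tmpo 0.59 (adjusted p = 0.132).

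Among 13 other genes of the BCL2 family, the relatives of Bax, 1 rose and 0 fell with age (median 0.06). It was Bok, a pore-forming member, which rose by 2.49 on the log2 scale (edgeR adjusted p = 0.0169) and was called in 10 of the 11 fits that left out a library, all but that without Old 4 (1.78, adjusted p = 0.124). It was not called with the letter M (adjusted p = 0.0616) or a rod score (adjusted p = 0.0671) as a covariate, over the libraries without the letter (adjusted p = 0.144) or without both Old 4 and Old-Control 2 (adjusted p = 0.0749). Bcl2a1b had a log2 fold change of 1.74 (adjusted p = 0.0501) and Bmf -0.48 (adjusted p = 0.0562). For OSK the median was 0.14, with 0 called by edgeR, 5 at an unadjusted p under 0.05 and 4 higher by DESeq2. The survival gene Mcl1 had a log2 fold change of 0.57 (adjusted p = 0.0720), Bid, which activates Bax, 0.90 (adjusted p = 0.0789) and Bak1, the closest partner of Bax, 0.89 (adjusted p = 0.0816).

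**Figure D4:**
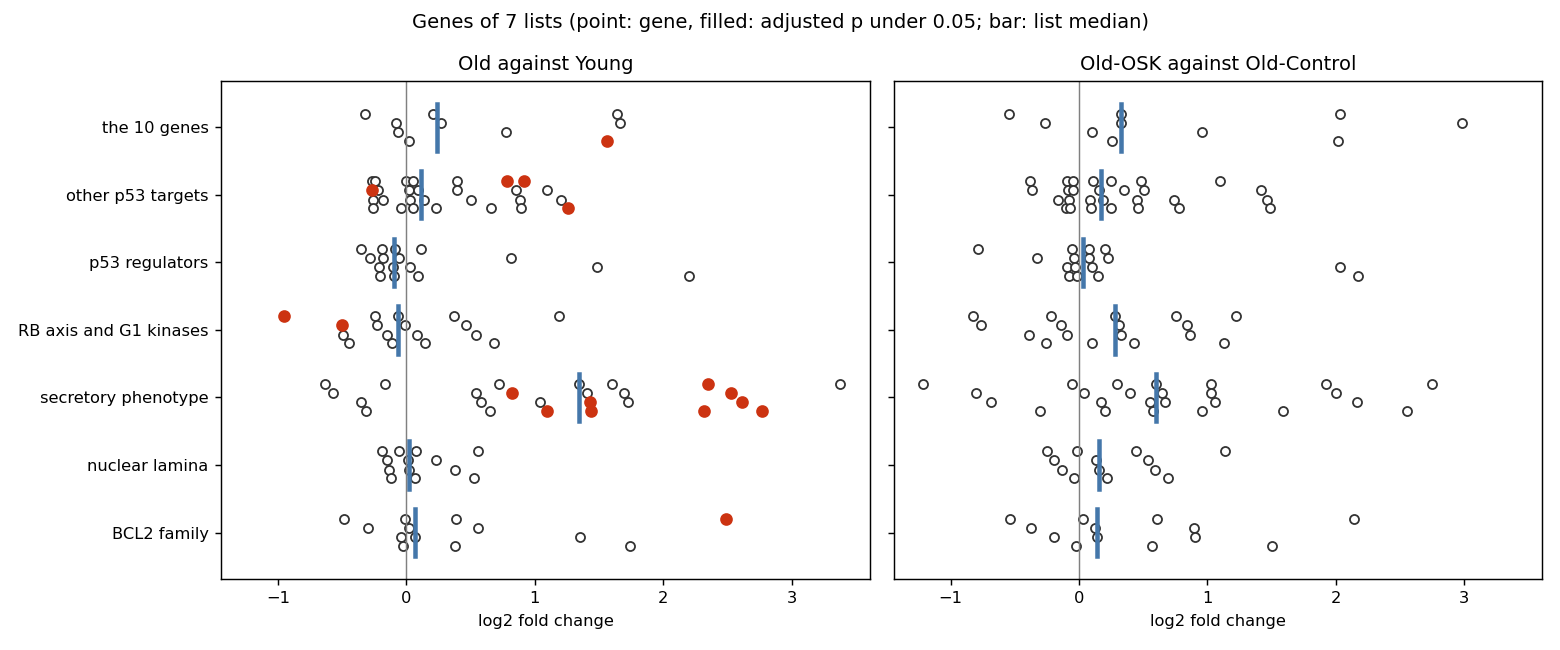
Log2 fold changes (horizontal axes) of the 10 genes and of the 6 other lists (rows) for age (left) and for Old-OSK against Old-Control (right); each point is a gene, filled points have an edgeR adjusted p under 0.05 over all genes tested, and bars are list medians. The secretory list holds 9 of the filled points with age and a median of 1.34, and no point is filled for OSK.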

How the data were processed

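Per the labels' protocols, polyA RNA of RPE was turned into cDNA by SMART-Seq v4 and the libraries are of the Nextera XT type. The authors deposited raw counts per gene for 18 libraries, and the tools named are STAR 2.7.1a and featureCounts 1.6.2, with the mouse build GRCm38 (mm10) and the human build GRCh38 (hg38), per the submitters' processing notes. The annotation and strand setting are not given in the sources used here. Coordinates are from GENCODE vM21 on GRCm38, in which 21462 of the 21859 symbols were found.

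Genes were filtered with filterByExpr (minimum count 10, minimum total 15), scaled by TMM and fitted over all 18 libraries with 4 group means by edgeR 4.0.16 (quasi-likelihood test, R 4.3.3) on the deposited counts. Two-sided p-values had Benjamini-Hochberg adjustment over 15944 genes, and a gene is called at an adjusted p under 0.05. Standard errors of log2 fold changes were derived from the fold change and its F statistic. Log2 CPM used a prior count of 2. The script was tested on simulated data. DESeq2 1.42.0, other filters and scalings, covariates and leaving out each library were alternatives. The package limma 3.58.1 was used only through edgeR and was not an alternative. Shares of genes called by DESeq2 are over the genes to which it gave an adjusted p. All 10 members were named, with the 3 genes of lowest p per list and comparison and the 3 genes nearest to Cdkn1a, Ccng1 and Lmnb1 whose mean log2 CPM reached 3, of which some are not reported here. The members and lists were chosen with earlier results of these data known.

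Replicates of a group differed beyond sampling noise (lowest chi-square per gene 21.2 over the 36 pairs), so none was merged. Deviations from the group means of same-numbered libraries had correlations of 0.103, 0.421 and 0.339 between Old-OSK and Old-Control. All exceeded 0.1, so the numbers were treated as pairs in an alternative fit, on this check alone, as the library names number them differently. For Old against Young they were -0.05, -0.02, 0.14 and -0.19, and for Old-Control against Old 0.20, -0.19 and 0.36, which were not treated as pairs. Reads carry no molecular identifiers, so counting error is a lower limit.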

Additional observations from a re-analysis of the deposited data

Results flagged for a closer look

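Single libraries that stood apart from the rest of their group, by the gap to the nearest library relative to the range of the group, were found in 4 of the 30 gene and group combinations tested. The rule is meant to mark about 1 in 20 by chance among independent values. The genes here share libraries, so whether 4 of 30 is an excess was not tested. Young 3 held 27.1 CPM of Cdkn1a and 7.66 CPM of Cdkn2b, each the highest of the 7 Young libraries. Old-OSK 4 held 4.12 CPM of Gdf15, where the other 3 were within 3.58 to 3.62 CPM. Old 3 held 30.8 CPM of Bax, where the other Old libraries were within 27.1 to 27.4 CPM. Without Young 3 the age difference of Cdkn1a was 1.95 on the log2 scale (edgeR adjusted p = 0.00656) and without Old 3 that of Bax was -0.03. Without Old-OSK 4 the log2 fold change of Gdf15 in Old-OSK against Old-Control was -0.64 (adjusted p = 0.124).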

How the results depend on the processing

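In Old against Young, 861 genes were called higher, 663 lower and 1 of the 10 members. The counts were 315, 285 and 0 with the letter M as a covariate, 275, 201 and 0 with a rod score as a covariate, and 0, 0 and 0 with a replicate block (8 libraries, numbers that do not pair them), where Cdk2, Bok, Mmp3, Mmp12 and Tgfb1 were not called either. They were 105, 86 and 0 over the same libraries without the block, which are also those without the letter M, and 343, 279 and 0 without Old 4 and Old-Control 2, both chosen after seeing the data. DESeq2 called 1495 higher and 2 members, the groups alone 0 members, no low-count filter 396 lower and a mean of at least 50 counts 425 lower. Leaving out a library gave 233 to 1422 higher, 160 to 734 lower and 0 to 3 members, lowest without Old 4. In Old-OSK against Old-Control, 65 genes were called higher, 51 lower and 0 members. The counts were 41 and 17 with the letter M, 2 and 0 for the groups alone, 984, 619 and 2 members in DESeq2, 381, 80 and 1 with the replicate block (the pairing), 898, 92 and 2 over the same libraries without it, and 1492, 2237 and 3 without Old 4 and Old-Control 2. Lower calls were 29 with median-ratio size factors, 22 without a filter and 79 at a mean of at least 50 counts. Leaving out a library gave 12 to 1007 higher, 1 to 1874 lower and 0 to 2 members, highest without Old-Control 2. Against the 18 libraries the paired fit, which drops Old-OSK 4, gained the call of Cdkn1a. Against the same 6 libraries unpaired it lost that of Cdkn2b (adjusted p = 0.0686 paired and 0.0400 unpaired) and kept that of Cdkn1a. Cdkn2a is among the members called without Old-Control 2. In Old-Control against Old the count was 0 in every setting run. Members reversed only there, apart from Bax in Old against Young (-0.0262 to 0.0369 with a library left out): Mdm2 was -0.00386, -0.00723 and -0.00398 with median-ratio size factors, no filter and DESeq2; Cdkn1b -0.00288, -0.0285, -0.0198 and -0.0114 with no filter, the letter M, the block and its libraries unblocked; Cdkn1a 0.11, 0.29 and 0.18 with the letter M, the block and its libraries unblocked, and 0.29 without Old 4 and Old-Control 2; Lmnb1 0.0258 over the libraries of the block. With a library left out they ran from -0.0247 to 0.0475, -0.0412 to 0.13, -0.70 to 0.18 and -0.77 to 0.0334 in the same order. The causes were not tested. Depth limits Cdkn2a, with 0 to 43 counts a library.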
